A study of Mus musculus with 333 samples.

Results

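Among 18 cells of P12 mouse visual cortex that the submitters labelled Microglia, 4 carried genes of brain macrophages and little P2RY12, and the other 14 carried P2RY12 at high level. The cells were chosen by a measured value: cells with less than 2500 CPM of P2RY12 (CPM are read counts of a gene scaled to the same total in every cell) form the P2RY12-low set, and cells at or above it the other set. The 4 P2RY12-low cells are numbered 54, 55, 30 and 23 in their titles, and all 18 come from a series of 333 single cells. Because P2RY12 made the split, its own level is a description and no finding, and it enters no count below.

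The series profiled wildtype mouse brain at embryonic day 18.5, postnatal day 12 (P12) and in adults, with 5 mice at each stage. Cells were enriched by flow sorting, captured singly on a Fluidigm C1 device and amplified from polyA RNA. Both sets compared here share genotype, age, region and label, and no cell was treated. Strain, sort gate and cell-to-mouse assignment are not given in the labels, so the cells may come from few mice, each set is 1 sample, and no p-value or standard error can be given.

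Microglia and border-associated macrophages are both resident macrophages of the brain. Microglia lie in the tissue itself and are known for P2RY12, a receptor for ADP that guides their processes, and for genes such as TMEM119, SALL1 and SIGLECH. Macrophages of the perivascular space and the meninges are known for MRC1, the mannose receptor, for LYVE1, a hyaluronan receptor, and for F13A1, the A subunit of coagulation factor XIII. Both depend on the receptor CSF1R, so genes of the shared myeloid programme do not tell them apart.

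P2RY12 (chromosome 3, 59216272 to 59262871, minus strand, mm10) was at 6.25, 44.3, 77.3 and 1462 CPM in cells 54, 55, 30 and 23, against 3758 to 23973 CPM in the other cells. Cell 23 was the one just inside the threshold and cell 18, at 3758 CPM, the one just outside it. Total counts ran between 1397181 and 1646556 reads in the P2RY12-low cells and between 884543 and 1755940 reads in the other cells. With each cell thinned to 880000 reads, 2424 to 3373 genes had a read in the P2RY12-low cells, against 1873 to 2560 in the other cells. At this equal depth the medians were 2992 and 2248 genes. Cells 54, 55 and 30 lay above all of the other cells, and cell 23 lay within their range. The part of this difference in the results below was not tested.

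The 3 defining macrophage genes followed the label in 3 of the 4 cells. F13A1 (chromosome 13, 36867178 to 37050244, minus strand) was at 8568, 11094, 4457 and 397 CPM in cells 54, 55, 30 and 23, whereas 13 of the 14 other cells had no read and the remaining one had 0.571 CPM. LYVE1 (chromosome 7, 110850607 to 110863239, minus strand) was at 2254, 7758 and 5331 CPM in cells 54, 55 and 30, and had no read in cell 23 or in any of the 14 others. MRC1 (chromosome 2, 14229392 to 14332057, plus strand) was at 4106, 6080.2, 10815 and 11574.5 CPM in cells 54, 55, 30 and 23, against a lowest value of 0, a median of 0 and a highest of 4468 CPM in the other cells. F13A1 therefore separated all 4 cells from all 14, LYVE1 separated 3 of the 4, and MRC1 did not separate them, because 1 other cell stood above cell 54. That was cell 2, and cells 35 and 1 followed it with 2779 and 2352 CPM of MRC1. All 3 of these cells had at least 11065 CPM of P2RY12, and in sum they held 1 read of F13A1, LYVE1, PF4, CD163 and MS4A7. In cell 2 MRC1 was not isolated. The macrophage genes STAB1 and DAB2, described below, were at 671 and 1554 CPM there, the highest values among the other cells. Cells 35 and 1 had less of both, with 105 and 1.33 CPM of STAB1. The name macrophage-like thus has all 3 markers behind it in cells 54, 55 and 30, and in cell 23 it rests on MRC1, a lower F13A1 and the further genes below.

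**Figure D1:**
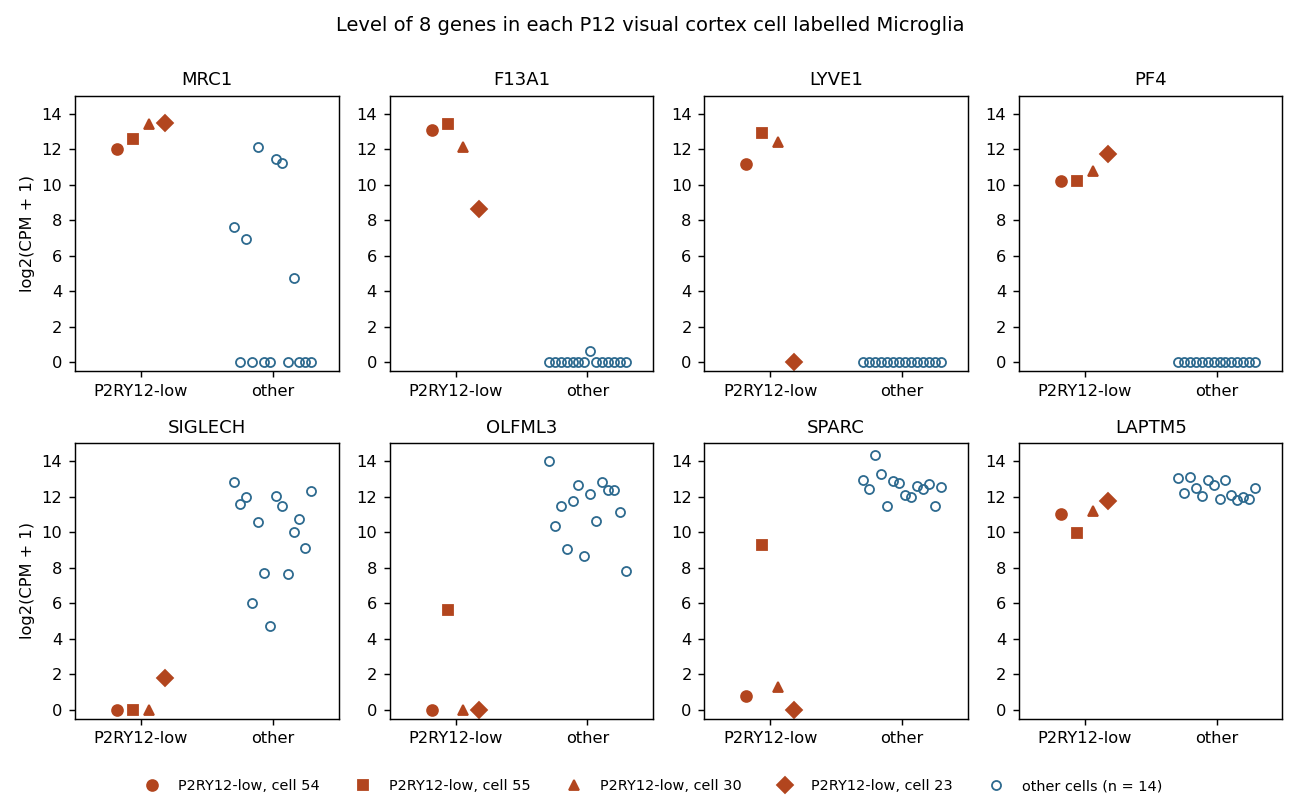
Level of 8 genes, as log2 of CPM plus 1, in each of the 4 P2RY12-low cells (filled symbols, 1 shape per cell, left) and each of the 14 other cells (open circles, right). F13A1 and PF4 lie above all other cells in each P2RY12-low cell, LYVE1 does so in 3 of 4, and SIGLECH, OLFML3, SPARC and LAPTM5 lie below all other cells in each of the 4.

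For the comparison across genes, counts were summed over the cells of a set and divided by the set's total, and the log2 ratio of P2RY12-low over other cells was taken after adding 1 CPM to each. Genes below 10 CPM in both sets were set aside, which left 6393 measured genes. A gene that reached 10 CPM in 1 set only could not come out higher in the other set. Where members of a list did so, the list's counts below are set in part by this minimum. Of the measured genes, 32.6% (2083 genes) were at least 2-fold higher and 46.9% (2999 genes) at least 2-fold lower in the P2RY12-low cells, and the log2 ratio had a median of -0.64 over all measured genes. A 2-fold difference of 1 gene is therefore common between 4 and 14 cells of this kind and is given here only as a count against these shares. Levels in every P2RY12-low cell above every other cell were found for 0.579% of measured genes (37), and levels below every other cell for 0.0939% (6).

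The wider list of perivascular macrophage genes was high in the P2RY12-low cells almost throughout. Of its 22 measured members, 21 were at least 2-fold higher, none was 2-fold lower, and the median log2 ratio was 8.79, with a range of 7.33 to 9.16 when any 1 of the 18 cells was left out. The exception was IGFBP4, a binding protein of insulin-like growth factors, with 34.8 CPM in the summed P2RY12-low set against 55.9 CPM in the other, and it was at least 2-fold lower without cell 54. Among the 22, 13 had no read in any of the 14 other cells. In the other set only MRC1, DAB2, STAB1, HPGD and IGFBP4 reached 10 CPM. All remaining members were measured only through the P2RY12-low set and could not come out lower. The count and the median are therefore set in part by that minimum. MRC1, DAB2, STAB1 and HPGD had log2 ratios of 3.22, 4.59, 4.08 and 1.79. The list was chosen with the split and earlier results of these cells known, so its direction is not independent evidence for the name.

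PF4, a platelet-type chemokine that brain macrophages also make, had 1168, 1165, 1710 and 3391 CPM in cells 54, 55, 30 and 23 and no read in the other cells. All 4 cells were high, and the sets did not overlap. Against a floor of 3 reads over the 14 other cells, the summed level was at least 12005-fold higher by counting error alone. That figure treats amplified reads as independent, which they are not. STAB1, the scavenger receptor stabilin-1, had 1772, 1342, 3627 and 1223 CPM in the same order, against 0, 3.95 and 671 CPM as the lowest, median and highest of the other cells. Again no P2RY12-low cell fell within the range of the others. DAB2, an adaptor of endocytosis, had 1218, 3642, 6430.1 and 4020.5 CPM, against at most 1554 CPM in the other cells, where its median was 0. Cell 54 lay within that range and the other 3 P2RY12-low cells above it.

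Several macrophage genes were present in some of the 4 cells only. CD163, the receptor for haemoglobin bound to haptoglobin, had 4267, 142 and 328 CPM in cells 55, 30 and 23 and no read in cell 54. MS4A7, a membrane protein of the MS4A family, had 578, 625 and 1546 CPM in cells 55, 30 and 23 and likewise no read in cell 54. FOLR2, the folate receptor beta, had 816, 1773 and 823 CPM in cells 54, 55 and 30 and no read in cell 23. None of these 3 genes had a read in the 14 other cells, so the variation lay within the P2RY12-low set. CLEC10A, a lectin for galactose-type sugars, was at 976, 458 and 13.6 CPM in cells 54, 55 and 30, and CD209F, a lectin of the DC-SIGN family, reached 3093 CPM in cell 30 with 1.39 CPM as the next value. A read count of 0 in 1 P2RY12-low cell allows a level of up to 1.82 to 2.15 CPM by counting error alone, and amplified reads of 1 cell are not independent molecules.

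The homeostatic microglia list, which leaves out P2RY12, went the other way. None of its 24 measured members was at least 2-fold higher and 21 were at least 2-fold lower, with a median log2 ratio of -4.08 and a range of -5.07 to -3.67 when 1 cell was left out. Members below 10 CPM in the P2RY12-low set, 6 of them without a read there, were measured only through the other set. They could not come out higher. SIGLECH, a sialic acid-binding lectin used as a microglial marker, had no read in cells 54, 55 and 30 and 2.43 CPM in cell 23, against a lowest value of 25.4, a median of 1602 and a highest of 7111 CPM in the other cells. OLFML3, a secreted olfactomedin-family protein, had 47.9 CPM in cell 55 and no read in cells 54, 30 and 23, against 221, 3154 and 16132 CPM. SPARC, a matrix-associated glycoprotein, had 0.694, 628, 1.43 and 0 CPM in cells 54, 55, 30 and 23, against 2813, 6085 and 20603 CPM. For these 3 genes every P2RY12-low cell lay below every other cell.

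SALL1, a transcription factor needed for microglial identity, had no read in the 4 cells and a median of 294 CPM with a highest of 4451 CPM in the others, where 2 of the 14 also lacked a read. TMEM119, a membrane protein specific to microglia in the brain, had 461 CPM in cell 23 and no read in cells 54, 55 and 30, against 0, 288 and 4037 CPM as lowest, median and highest of the other cells. Cell 23 was thus the only P2RY12-low cell with TMEM119, and it lay above the median of the other set for that gene. The remaining genes at 0 in all 4 cells were NAV3, SLC2A5, RTN4RL1, ADORA3 and LAG3, of which RTN4RL1 and ADORA3 were each read in 4 and LAG3 in 6 of the 14 other cells.

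Part of the microglia list was kept at substantial level in the P2RY12-low cells. FCRLS, an Fc receptor-like molecule of mouse microglia, was at 873, 5159, 3836 and 5872 CPM in cells 54, 55, 30 and 23, against 479, 7360.2 and 13639 CPM as lowest, median and highest of the other cells. CX3CR1, the fractalkine receptor, was at 418, 1665, 2494 and 2738 CPM, against 236, 8873 and 17658 CPM. GPR34, a receptor for lysophosphatidylserine, was at 550.3, 214, 1002 and 1636 CPM, against 107, 3173 and 7417 CPM. For these 3 genes the sets overlapped, with all 4 P2RY12-low values of each gene below the median of the other cells. LTC4S, leukotriene C4 synthase, and P2RY6, a receptor for UDP, completed the 3 members within 2-fold, at log2 ratios of -0.30 and 0.68 beside FCRLS at -0.87. P2RY6 was at least 2-fold higher without cell 55, or without cell 1 or 27 of the other set.

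**Figure D2:**
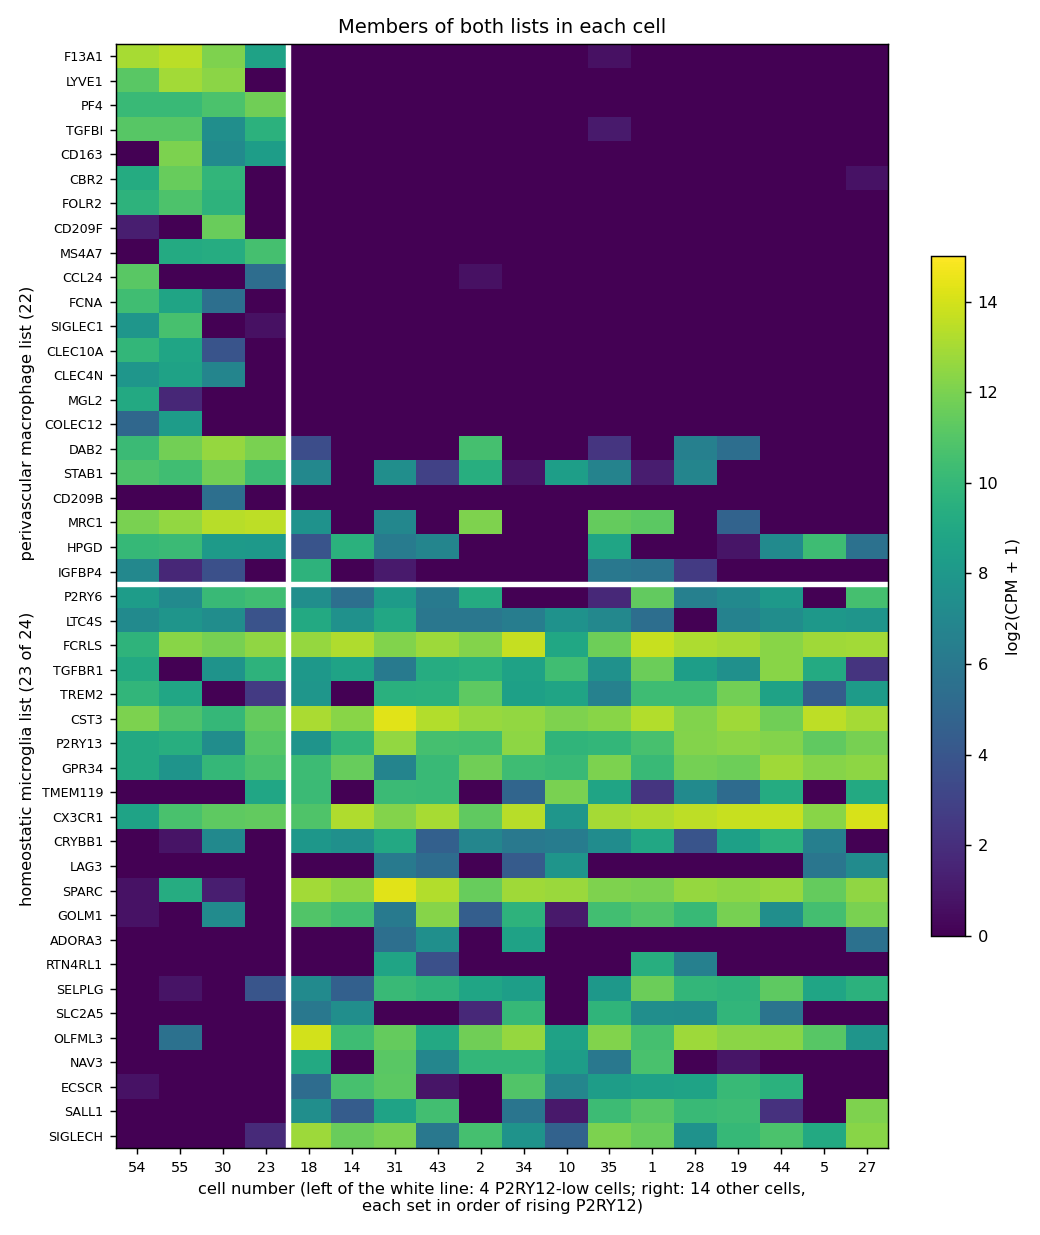
Level (colour, log2 of CPM plus 1) of the 22 measured perivascular macrophage genes (above the white line) and 23 of the 24 measured homeostatic microglia genes (below it) in each of 18 cells, with the 4 P2RY12-low cells left of the vertical line and the 14 others right of it. Of the macrophage genes, 13 are at 0 in all 14 other cells, and cell 23 lacks a read for 11 of the 22.

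Counted per cell, the number of macrophage list genes at 100 CPM or more was 17, 17, 14 and 9 in cells 54, 55, 30 and 23, against 0 to 3 with a median of 1 in the other cells. The number of homeostatic microglia genes at that level was 10, 10, 11 and 9, against 13 to 20 with a median of 17. The sets did not overlap in either number. Leaving out cells 23 and 55 together, an alternative chosen after seeing the data, gave the same counts for both lists as the full set, with 21 of 22 macrophage genes 2-fold higher and 21 of 24 microglia genes 2-fold lower.

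Cell 23 stood apart from the other 3. It lacked a read of LYVE1, FOLR2, CBR2, FCNA, CLEC10A and CLEC4N from the macrophage list and of EDNRB and CD38, both among the genes with the largest ratios in the set. It also held the highest values of the 4 cells for MRC1, PF4, MS4A7, C5AR1 and CD36. The summed level of the homeostatic microglia list was 18937 CPM in cell 23 and 9043 to 11741 CPM in the other 3, against 24189 to 76826 CPM in the other set. Its summed macrophage list was 23604 CPM, with 29515 to 47264 CPM in the other 3, against 0.753 to 6693 CPM in the other set (highest in cell 2). On both sums cell 23 lay between the other 3 P2RY12-low cells and the 14 other cells. Whether it is 1 cell or 2 captured together was not tested. It had 2424 detected genes at equal depth, the lowest number of the 4 cells.

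Genes shared by both kinds of macrophage were close between the sets. Of 18 measured members of the shared myeloid list, 3 were at least 2-fold higher, 4 at least 2-fold lower and 11 within 2-fold, with a median log2 ratio of -0.49 beside -0.64 over all measured genes. Without cell 44 of the other set, 1 was at least 2-fold higher. CSF1R, the receptor that both cell types need, had 3336, 2928, 1509.5 and 1325 CPM in cells 54, 55, 30 and 23, against 1.93, 3201 and 6554 CPM as lowest, median and highest of the other cells. TYROBP, an adaptor of activating receptors, had 2415, 1524.5, 780.1 and 1049.5 CPM, against 68.1, 996 and 4028 CPM. Both genes overlapped fully between the sets. LAPTM5, a lysosomal membrane protein of blood-derived cells, did not overlap, with 2080.3, 997.5, 2310.4 and 3403.5 CPM against 3617, 5198 and 8937 CPM. IRF8 and CYBA of this list were not analysed here.

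By the naming rule, which asked for a read in at least 3 P2RY12-low cells and a stable direction whichever cell was left out, 287 genes passed as higher and 124 as lower, and the 15 with the largest ratio were named in each direction. The higher ones were F13A1, LYVE1, EDNRB, PF4, CD36, HSDL1, CD38, TGFBI, GAS7, CYBB, CD163, CBR2, IGF1, MRVI1 and FOLR2. EDNRB, the endothelin B receptor, had 4063, 3288 and 3986 CPM in cells 54, 55 and 30 and no read in cell 23, against a median of 0 and a summed level of 0.373 CPM in the other cells. CD38, an enzyme that breaks down NAD, had 2435, 1005 and 2743 CPM in the same 3 cells and no read in cell 23 or the other set. CYBB, the catalytic subunit of the phagocyte NADPH oxidase, had 571, 1985, 790.2 and 1233.5 CPM in cells 54, 55, 30 and 23 and no read in the other set. MRVI1, a substrate of cGMP-dependent kinase, was different in kind, since 2992 CPM in cell 23 made up nearly all of it, with 0, 93.0 and 0.716 CPM in cells 54, 55 and 30. Its log2 ratio of 9.75 became 0.44 with cells 23 and 55 left out and -2.92 with the threshold at 1000 CPM, which moves cell 23 into the other set. At that threshold the log2 ratio of CD36 was 0.59 and that of PF4 2.30.

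The lower genes by the same rule, of which 14 are given, were SIGLECH, LPIN2, SALL1, IL1A, FRMD4A, SLC29A3, ECSCR, GPR155, ARHGAP5, NAV3, IL13RA1, NARF, SPECC1 and ARHGAP30. LPIN2, a phosphatidate phosphatase, had no read in the 4 cells and was read in 11 of the 14 others, with a summed level of 1028 CPM there. IL1A, the cytokine interleukin 1 alpha, had 0.607 CPM in cell 23 as its only signal in the set, against a median of 28.1 and a highest of 3519 CPM in the others. With the threshold at 5000 CPM, which moves cell 18 into the P2RY12-low set, the log2 ratio of IL1A became -0.31 and that of SIGLECH -0.91. In LPIN2 and IL1A some of the other cells were at 0 as well, so the sets overlapped at the bottom.

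Scavenger receptors take up lipoproteins and cell debris. Of 13 measured, 10 were at least 2-fold higher and 3 at least 2-fold lower. The median log2 ratio of 7.01 became 4.47 without cell 55, and 6 of the 10 also belong to the macrophage list. Of the 10, MRC1 and STAB1 alone reached 10 CPM in the other set. The remaining ones were measured only through the P2RY12-low set and could not come out lower. The count and the median are therefore set in part by that minimum. CD36, a receptor for oxidised lipoproteins and fatty acids, had 1264, 64.4, 499.6 and 5072 CPM in cells 54, 55, 30 and 23, against at most 0.571 CPM in the other cells. MSR1, the macrophage scavenger receptor A, had 1368, 1301, 158 and 7.29 CPM, against at most 3.99 CPM. Both separated all 4 cells from all 14, MSR1 by a small margin in cell 23. The lower ones were MERTK, a receptor for the uptake of dying cells, at a log2 ratio of -2.42, LRP1, a lipoprotein receptor, at -2.62 and SCARB1, a receptor for high-density lipoprotein, at -3.64. SCARB1 was read in 3 of the 14 other cells, and its ratio was -0.27 without 1 of them.

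APOE, the main lipid carrier of the brain, had 19708, 9415, 1247.5 and 2419 CPM in cells 54, 55, 30 and 23, against 0, 0.865 and 2202 CPM as lowest, median and highest of the other cells. Cells 54, 55 and 23 lay above every other cell and cell 30 within their range. PLTP, a phospholipid transfer protein, had 688, 1139, 71.6 and 831 CPM against at most 1.28 CPM, and PLIN2, which coats lipid droplets, had 980, 1630.3, 668 and 1262 CPM against at most 278 CPM. Over the 9 measured genes of lipid handling, 4 were at least 2-fold higher and 3 at least 2-fold lower, among them the cholesterol exporters ABCA1 and ABCG1 at log2 ratios of -1.09 and -2.60, the first of which became -0.48 when 1 cell was left out. The list's median of 0.70 changed sign to -0.04 without cell 23.

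Genes of iron and haem were higher in 7 of 11 measured cases and lower in 1, with a median log2 ratio of 2.17. Without cell 54, 3 were lower, and without cell 27 none. CP, the ferroxidase ceruloplasmin, had 622, 288, 295.6 and 120.3 CPM in cells 54, 55, 30 and 23 and no read in the other set. SLC40A1, the iron exporter ferroportin, had 180.4, 3168, 2456 and 3262 CPM, against 0, 0.309 and 2917.5 CPM as lowest, median and highest of the other cells. FTH1, the ferritin heavy chain, had 5730.2, 4379, 1258 and 4046 CPM, against 6.42, 681 and 3447 CPM. CP separated the sets, while for FTH1 cell 30 and for SLC40A1 cells 54 and 30 lay within the range of the other cells. TFRC, the transferrin receptor that brings iron in, had no read in the 4 cells and was read in 5 of the 14 others, and its 2-fold difference was lost (log2 ratio -0.71) when 1 of these was left out.

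Lysosomal genes went in both directions. Of 21 measured, 8 were at least 2-fold higher, 4 at least 2-fold lower and 9 within 2-fold, with a median log2 ratio of 0.74. Without cell 5 of the other set, 2 were lower. CTSB, the protease cathepsin B, had 15529, 21212, 10573 and 17801 CPM in cells 54, 55, 30 and 23, against 24.9, 4668 and 11644 CPM as lowest, median and highest of the other cells. CD63, a membrane protein of late endosomes, had 1211, 1153, 1447 and 1501 CPM, against 0, 15.6 and 1043 CPM. CD63 separated the sets and CTSB did so except for cell 30. LYZ2, the lysozyme of mouse macrophages and monocytes, was outside that list and separated the sets, with 8734, 9136, 444 and 1767 CPM against at most 102 CPM.

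Receptors and ligands of immune signalling differed by class. Of 9 measured complement genes, 6 were at least 2-fold higher and none at least 2-fold lower, with a median log2 ratio of 1.29. Among the 6, C4B, CFP and CLU were below 10 CPM in the other set and could not come out lower. With 1 cell left out, the log2 ratio fell as low as -1.34 for CLU and -0.42 for C1QA. C5AR1, the receptor for the complement fragment C5a, had 3065, 1991, 2501 and 5961.5 CPM in cells 54, 55, 30 and 23, against 0, 0.617 and 1924 CPM as lowest, median and highest of the other cells, and did not overlap. C1QB, a chain of the recognition molecule C1q, was within 2-fold, at 5679, 6068, 2114 and 4568 CPM against 560.4, 4116 and 7227 CPM. Among 5 Fc receptor genes 3 were at least 2-fold higher and none at least 2-fold lower, the median log2 ratio being 1.03. Without cell 55, 1 was higher and 1 lower.

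Of 12 measured chemokine genes, 9 were at least 2-fold higher and none at least 2-fold lower, with a median log2 ratio of 2.5. Without cell 54, 30 or 23, 1 of them was at least 2-fold lower. CCL7, a ligand of the monocyte receptor CCR2, had 2422, 1027, 15072.5 and 1405 CPM in cells 54, 55, 30 and 23, against 0, 0 and 373 CPM as lowest, median and highest of the other cells. CCL2, a second ligand of that receptor, had 13881, 979.6, 14175 and 1448 CPM, against 0, 103 and 8198 CPM. CCL7 separated the sets, and CCL2 did so in cells 54 and 30 only. CCL3 and CCL4, which activated microglia also make, had no read in cell 55 and overlapped, with log2 ratios of 1.00 and 0.37. Of 9 measured cytokine genes, 2 were at least 2-fold higher, 4 without cell 14 of the other set, and 5 at least 2-fold lower, shares near those over all measured genes. IGF1, the growth factor, was the highest of these by ratio, with 1014.5, 90.1, 2566 and 186 CPM in cells 54, 55, 30 and 23 and no read in the other set.

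Of 7 measured purinergic genes other than P2RY12, 2 were at least 2-fold higher and 3 at least 2-fold lower. These counts were near the shares over all measured genes (32.6% and 46.9%). The higher ones were the ATP-gated channels P2RX7 and P2RX4. P2RX4 had 255, 449, 173 and 43.7 CPM in cells 54, 55, 30 and 23, against at most 28.6 CPM in the other cells, and separated the sets. P2RX7 had 2415, 954, 281 and 46.8 CPM, against at most 428 CPM, so cells 30 and 23 overlapped with the others. The lower ones were P2RY13, an ADP receptor, at a log2 ratio of -1.63, GPR34 at -1.86 and ADORA3, an adenosine receptor, with no read in the 4 cells.

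Among 16 measured myeloid transcription factors 3 were at least 2-fold higher and 7 at least 2-fold lower, with a median log2 ratio of -0.57 beside -0.64 over all measured genes. The count of higher ones was 1 without cell 55 and 5 without cell 27. SALL3, a relative of SALL1, also had no read in the 4 cells, against a median of 0.772 and a highest of 1174 CPM in the others. MAF, a factor of tissue macrophages, was within 2-fold, with 2349.5, 2403, 2155 and 1485 CPM in cells 54, 55, 30 and 23 against 0, 1014 and 2767 CPM. Of 11 measured genes of the TGF-beta pathway, which maintains microglia, 3 were at least 2-fold higher and 6 at least 2-fold lower. Both counts were near the shares over all measured genes (32.6% and 46.9%). TGFBR2, the type II receptor of this pathway, was among the higher ones. It had 249.8, 316 and 322 CPM in cells 54, 55 and 30 and 3972.5 CPM in cell 23. The lowest, median and highest of the others were 0, 2.26 and 1123.5 CPM.

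**Figure D3:**
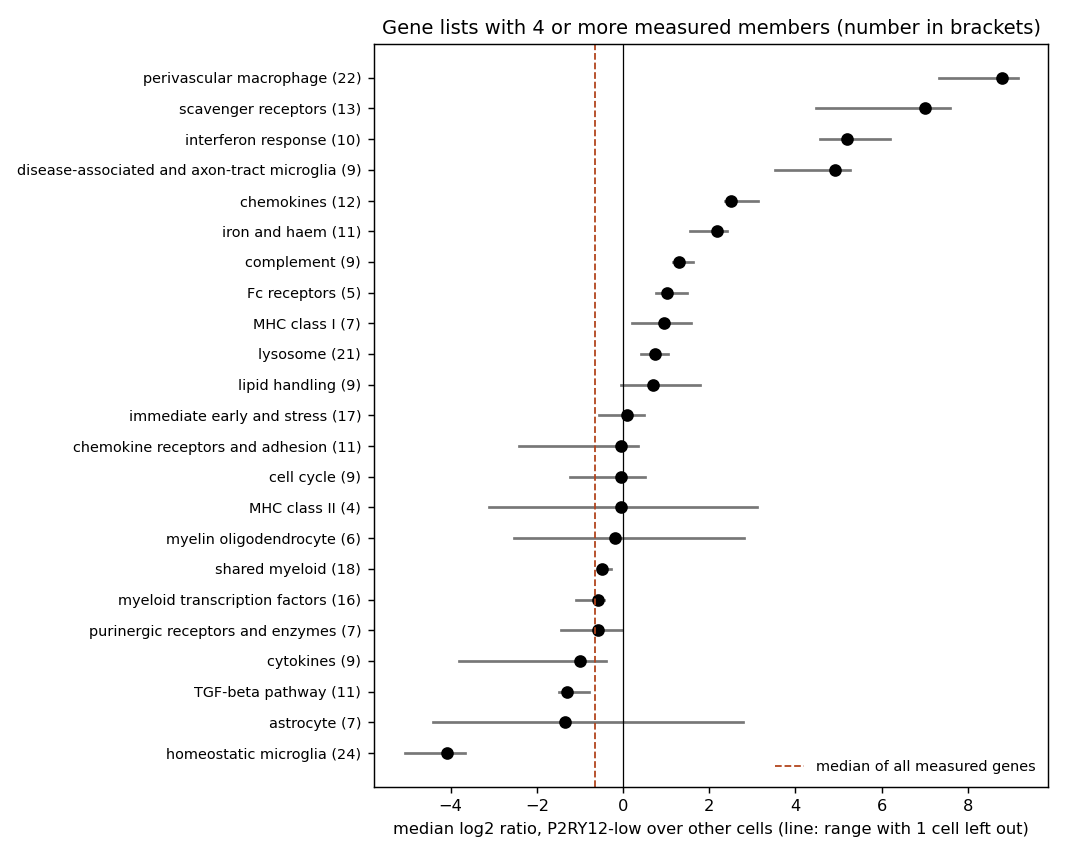
Median log2 ratio, P2RY12-low over other cells, for 23 gene lists with 4 or more measured members (dots, number of members in brackets), with lines for the range when 1 cell is left out and a dashed line at the median of all measured genes (-0.64). The perivascular macrophage list lies highest at 8.79 and the homeostatic microglia list lowest at -4.08.

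Markers of other blood-derived cells were nearly absent. Of 15 monocyte and neutrophil genes in the table, 11 had no read in any of the 18 cells and 2 were measured. NGP, a granule protein of neutrophils, had 104 CPM in cell 30 and no read in cells 54, 55 and 23. CSF3R, the receptor for granulocyte colony-stimulating factor, reached 120 CPM in cell 55 as the highest of the 4, against up to 5037 CPM in the other cells. Of 10 dendritic cell genes 7 had no read in any cell and 2, NAAA and BATF3, were measured, both without a read in the 4 cells. In the P2RY12-low cells the summed dendritic list was 5.55 CPM in cell 54 and 0 in cells 55, 30 and 23. CD74, the invariant chain of class II antigen presentation, had 70.1 CPM in cell 30 and no read in cells 54, 55 and 23, against reads in 7 of the 14 other cells with a highest level of 951 CPM. Of 4 measured class II genes, 2 were at least 2-fold higher and 2, CD74 and H2-DMB1, at least 2-fold lower. The higher ones were H2-DMA, at 333 CPM in cell 23, and H2-DMB2, at 314 CPM in cell 54. Neither had a read in the rest of the P2RY12-low set, and the other cells had at most 94.7 and 79.2 CPM.

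Markers of the other brain cell classes stayed below 10% of their own class in the 5 classes compared, with exceptions in single genes and cells. The summed astrocyte list was 1.39, 166, 253 and 1302 CPM in cells 54, 55, 30 and 23, against 3.99, 202 and 3988 CPM as lowest, median and highest of the other cells. The highest, in cell 28, was 8.10% of the median of the astrocytes of the series. Of 7 measured astrocyte genes, 3 were at least 2-fold higher and 4 at least 2-fold lower. The higher ones were CLU and AQP4, at 1249 and 52.2 CPM in cell 23, and ATP1B2, at 156 CPM in cell 55. Among the lower ones, SLC1A3, an astrocytic glutamate transporter, was at 2.86 CPM in cell 55 and at 0 in cells 54, 30 and 23. It had reads in 11 of the 14 other cells with a highest level of 2460.2 CPM. The fibroblast genes PTGDS, prostaglandin D synthase, and DCN, the proteoglycan decorin, had 14229 and 836 CPM in cell 55 and no read in cells 54, 30 and 23 or in the 14 other cells. Their summed list was 15085 CPM in cell 55, 0 in the other 3 P2RY12-low cells and at most 0.821 CPM in the other set. Cell 55 also had 678 CPM of ITM2A, a gene of the endothelial list, and cell 54 had 326 CPM of GAP43, a growth cone protein of neurons. The summed endothelial list of cell 55 was 2.90% of the median of the endothelial cells of the series, and the summed neuron list of cell 54 was 4.53% of that of neurons. Mural, oligodendrocyte precursor, red cell, and lymphocyte and mast cell lists had no measured gene. Without cell 55, 21 of 22 macrophage genes were at least 2-fold higher, and of 24 microglia genes 21 were at least 2-fold lower and 1, P2RY6, at least 2-fold higher.

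By median correlation over all measured genes, the P2RY12-low cells were closer to one another than to the other set. Pearson's r of log2 levels over the 6393 measured genes had a median of 0.285 to 0.312 between each P2RY12-low cell and the other 3, against 0.232 to 0.253 between it and the 14 others. Each of the 14 had a median r of 0.214 to 0.272 with the P2RY12-low cells and 0.283 to 0.320 with the rest of its own set. Single pairs overlapped, as cell 55 had a lowest r of 0.269 within its set and a highest of 0.276 with the other set. With the 2 cells of embryonic day 18.5 labelled Microglia, the median r was 0.327, 0.306, 0.294 and 0.290 in cells 54, 55, 30 and 23. Within their own set it was 0.312, 0.290, 0.285 and 0.290, so these cells were no closer to one another than to the embryonic ones. These are descriptions of sparse single-cell profiles over genes that include those of both lists.

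The same genes were looked up in the other 24 cells of the series labelled Microglia, which the split did not use. Both such cells of embryonic day 18.5, titled mThal while their source field names visual cortex, had a similar pattern in the 3 defining macrophage genes, PF4 and P2RY12. In cells 32 and 39 of that set F13A1 was at 4937.5 and 9476.5 CPM, LYVE1 at 2156.5 and 7276 CPM, MRC1 at 577 and 2982 CPM, PF4 at 1678 and 6003 CPM and P2RY12 at 11.9 and 3.82 CPM. Further macrophage genes differed from the P2RY12-low set or between these 2 cells. STAB1 was at 1.70 and 299 CPM, and MS4A7 had no read in either cell. DAB2, CBR2, CD163 and FOLR2 were at 623.5, 668, 2856 and 1787 CPM in cell 32 and had no read in cell 39. Cells 32 and 39 carried 10 and 9 macrophage list genes at 100 CPM or more, close to the 9 of cell 23. They carried 3 and 2 homeostatic microglia genes, fewer than any of the 4 P2RY12-low cells. Age, title and cell number differ between these sets and cannot be told apart.

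In P12 hippocampus, cell 35 of 8 lay just above the threshold at 2840 CPM of P2RY12 and carried 6 macrophage list genes at 100 CPM or more, against 1 or 2 in the other 7. It had 1448 CPM of MRC1, 227 of PF4, 464 of MS4A7, 2333 of STAB1 and 5355 of DAB2, but no read of F13A1 or LYVE1. Homeostatic microglia genes at 100 CPM or more numbered 7 in this cell, fewer than the 9 to 11 of the P2RY12-low cells. SIGLECH was at 34.1 CPM and SPARC at 0.758 CPM there, and TMEM119 and OLFML3 had no read. In P12 thalamus no cell had a read of F13A1, LYVE1 or PF4. In adult visual cortex 9 cells had 4647 to 8747 CPM of P2RY12 and at most 1.02 CPM of MRC1, F13A1, LYVE1 or PF4, while STAB1 reached 2800 CPM there, so STAB1 alone did not set macrophage-like cells apart in adults. The remaining 2 adult cells, 1 and 6, had no read of P2RY12 or of the macrophage genes, and their libraries nearly coincided (Pearson's r of 0.994 over all genes, against 0.495 for the closest pair among the 18 cells), so they count as 1. Across all 315 cells outside the 18, MRC1, F13A1 and LYVE1 together reached 100 CPM in 2 cells, both of them the embryonic ones, and in none of the 291 cells without the label Microglia.

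**Figure D4:**
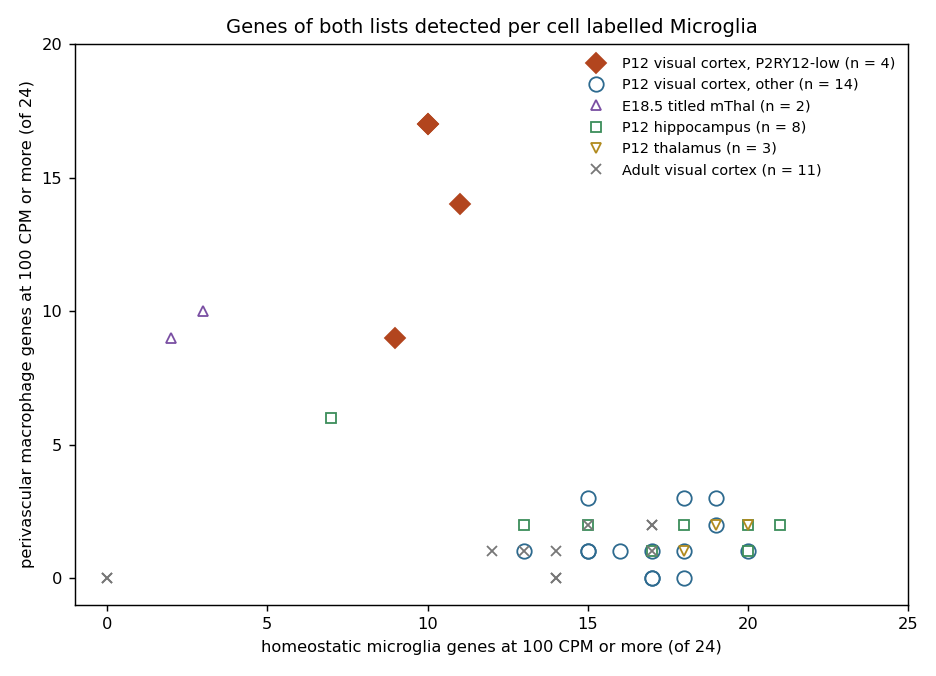
Number of perivascular macrophage genes (vertical axis) against number of homeostatic microglia genes (horizontal axis) at 100 CPM or more in each cell labelled Microglia, of 24 genes per list, by set. The 4 P2RY12-low cells (diamonds, cells 54 and 55 at the same point) lie at 9 to 17 macrophage genes, the 14 other cells of P12 visual cortex at 0 to 3, and the 2 adult cells at the origin are the near-identical pair.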

How the data were processed

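The deposited table holds integer read counts for each gene in each cell, which the authors made with STAR and HTSeq version 0.6.0 on mm10, per the submitters' processing notes. Not given in the sources used here were the annotation and the strand setting, so counts of near-identical or overlapping genes (the Ccl, Cd209, Ifitm and H2 families among them) are uncertain. The library method has no molecular identifiers.

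Cells were grouped by title and the submitters' cell type label, then split at 2500 CPM of P2RY12. The members and all 32 gene lists were chosen with earlier results of these data known. Of 436 list entries, 5 found no symbol in the table of 22074 genes. Counts were summed per set and scaled to CPM, with log2 ratios after adding 1 CPM, in Python 3.11.15 with pandas 2.3.3 and numpy 2.4.6. TMM factors came from edgeR 4.0.16. No test between the sets was run, since no label ties cells to mice. Dixon's criterion for 1 value apart from the rest was applied to the 4 cells as a description. No doublet filter was used, and no column of the table was without a sample.

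The naming rule took the 15 largest ratios per direction. It asked for 50 CPM or more in the higher set, a read in at least 3 of 4 (higher) or 8 of 14 (lower) cells after thinning to 880000 reads, a detection rate 30 percentage points over that of the other set, and a log2 ratio no nearer to 0 than 1 in every run with a cell removed. Ribosomal protein and predicted genes did not enter it. Any list member could be named, as could genes with no overlap between the sets (LYZ2), chosen after their values were seen. Some named or listed genes are not reported here. Gene positions are from GENCODE M21 (mm10). The steps were checked on simulated data.

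Alternatives were the mean of cell CPM, TMM and median-of-ratios scaling, a pseudocount of 10 CPM, a minimum of 50 CPM or none, thresholds of 1000 and 5000 CPM of P2RY12, each cell left out in turn, and, added after seeing the data, cells 23 and 55 left out together.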

Additional observations from a re-analysis of the deposited data

Results flagged for a closer look

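In 34 measures of the 4 P2RY12-low cells (depth, detected genes and the summed level of each list), 4 had 1 cell whose distance from the next relative to the whole range exceeded Dixon's 95% critical value for 4 samples. Chance gives about 1 such case in 20. Cell 23 had a summed TGF-beta pathway list of 10394.4 CPM, with 1628 to 2712 CPM in the other 3, and TGFBR2 and SKIL made up most of it. Cell 55 had a summed fibroblast list of 15084.9 CPM, with 0 in the other 3, and a summed endothelial list of 677.9 CPM, with 1.43 to 3.64 CPM. Cell 54 had a summed neuron list of 328.2 CPM, with 0.716 to 17.2 CPM in the other 3.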

How the results depend on the processing

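Of 27 alternatives, 18 left out 1 cell each. Over these 18, the number of genes at least 2-fold higher ran from 1827 to 2145 and the number at least 2-fold lower from 2871 to 3261. The macrophage list median ran from 7.33 to 9.16 and the microglia list median from -5.07 to -3.67. With a minimum of 50 CPM, 1449 genes were higher and 1836 lower, since fewer genes were measured, and with none 2526 and 3962. The macrophage list median was lowest at 5.49, with a pseudocount of 10 CPM, and 7.17 at the 1000 CPM threshold. The microglia list median moved to -2.45 with a pseudocount of 10 CPM, -2.88 with the 50 CPM minimum, -4.86 and -2.10 with thresholds of 1000 and 5000 CPM, and -4.79 without cells 23 and 55. TMM scaling shifted all log2 ratios by -0.13 and median-of-ratios scaling by -0.01. Reversed were MRVI1 (-2.92 at the 1000 CPM threshold) and list medians of endothelial -0.07 and neuron genes -0.06 without a minimum, and of endothelial genes -3.93 without cells 23 and 55. With 1 cell left out, the endothelial median ran from -2.70 to 7.26, the neuron median from -1.11 to 6.34, the monocyte and neutrophil median from -3.85 to 0.19 and the astrocyte median from -4.40 to 2.79. Calls of CD36 (0.59 at 1000 CPM), IL1A and SIGLECH (-0.31 and -0.91 at 5000 CPM) and MRVI1 (0.44 without cells 23 and 55) ended. The cause of these shifts was not tested. In all, 704 of 754 list medians and 787 of 810 named gene values moved by less than the spread between cells. Leaving out cells of mixed markers gave no value, as none reached 25% of the median of astrocytes, endothelial cells, neurons, oligodendrocyte precursors or myelinating oligodendrocytes. The fibroblast list, high in cell 55, was not in that check, as no cell of the series is labelled fibroblast. No paired analysis was possible because no test between the sets was run and the cells carry no shared numbers across sets.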

Other observations

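Interferon-response genes were read more in the P2RY12-low cells, with 7 of 10 measured at least 2-fold higher and 2 at least 2-fold lower (1 without cell 34 of the other set). IFITM2, an antiviral membrane protein, had 475, 472, 138 and 37.6 CPM in cells 54, 55, 30 and 23 and no read in the other set. OASL2 had 313 CPM in cell 55 and 1119 CPM in cell 23, and IFI27L2A had 333 CPM in cell 54 and 1014 CPM in cell 55. The summed list was 1608, 3153, 161 and 1584.5 CPM in cells 54, 55, 30 and 23, against a median of 8.71 and a highest of 1373 CPM in the other cells.

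Immediate early genes, which cells switch on fast after a stimulus, were present in both sets, with 4 of 17 measured genes at least 2-fold higher and 5 at least 2-fold lower in the P2RY12-low cells. Without cell 54, 1 was higher, and without cell 23, 8 were lower. FOS had 11159, 1684, 2631 and 3045 CPM in cells 54, 55, 30 and 23, against 82.6, 2323 and 8356 CPM as lowest, median and highest of the other cells. EGR1 had 6975, 720.1, 3126 and 3079.8 CPM, against 342, 8275 and 20016 CPM.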
